A study of Mus musculus with 6 samples.

Results

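The 10 genes described here are noncoding RNA genes that are transcribed in most mammalian cells, namely Malat1, Neat1, Gas5, Snhg1, Snhg3, Snhg5, Snhg8, Snhg12, Epb41l4aos and Dleu2. They were chosen by symbol from the 53618 named rows of the gene table, when it was already known from these data that noncoding genes had low values in one library, tamoxifen 1, so their position in that library is given as a description. The cells were mouse leukemia cells that carry AML1-ETO9a (AE9a), a truncated form of the AML1-ETO fusion, delivered together with GFP by a retrovirus to Usp18+/f UBCER-Cre fetal liver cells, which were passed through irradiated C57BL/6 recipients. Recipient mice that had become sick received oil or tamoxifen by intraperitoneal injection, and GFP+ Lin- c-Kit+ cells were sorted from the spleen 3 days after the first injection. The oil group is labelled Usp18+/f and the tamoxifen group Usp18+/Δ, with 3 libraries in each. Before injection both groups carried 1 floxed Usp18 allele, the AE9a-GFP virus and a Cre that is driven by the ubiquitin C promoter in all tissues. Only the injection differs, and tamoxifen itself cannot be told apart from the recombination it starts. A recipient still has its own blood cells, which the sort on GFP is meant to leave out. The labels give neither the sex of each mouse nor whether the 6 libraries came from separate primary leukemias, so the spread between libraries may be in part technical.

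Long noncoding RNAs are transcripts without a long reading frame, and the genes here fall into a few kinds. Malat1 and Neat1 lie side by side and their RNAs stay in the nucleus, Malat1 in nuclear speckles, which store splicing factors, and Neat1 as the scaffold of paraspeckles. Small nucleolar RNA (snoRNA) host genes carry snoRNAs in their introns. After splicing, the introns are trimmed to snoRNAs, which guide the methylation or pseudouridylation of ribosomal RNA, while many of the spliced host RNAs are removed by nonsense-mediated decay, a pathway that needs translation. Gas5, the best known host, was named for its accumulation in growth-arrested cells. Dleu2 lies in a region that is often deleted in chronic lymphocytic leukemia and is the primary transcript of miR-15a and miR-16-1, which target the mRNA of the apoptosis inhibitor BCL2.

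The annotation of GRCm38 (mm10) places Malat1 (6983 exonic bases) at chr19:5795690-5802672 on the minus strand and Neat1 (20771 exonic bases) at chr19:5824708-5845478 on the same strand. Of the hosts, Gas5 lies at chr1:161034422-161038539 (plus), Snhg1 at chr19:8723475-8726443 (plus), Snhg3 at chr4:132348014-132353686 (minus), Snhg5 at chr9:88521050-88522929 (minus), Snhg8 at chr3:123507552-123508404 (minus) and Snhg12 at chr4:132308623-132311024 (plus). Dleu2 covers chr14:61602839-61682373 on the minus strand. The 7 hosts hold 27 annotated snoRNA loci on their own strand. Gas5 has 9 of them, Snhg1 has 8, Snhg12 has 4, Snhg3 and Snhg5 have 2 each, and Snhg8 and Epb41l4aos have 1 each.

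The small RNAs are what the host genes are known for, so an example is shown for 3 of the hosts, with box C (TGATGA) and box D (CTGA) in capitals. These short motifs bind the proteins of the snoRNA particle. The sequences are GENCODE transcripts on GRCm38, at chr1:161038082-161038158 in Gas5, chr9:88521529-88521600 in Snhg5 and chr4:132310691-132310764 in Snhg12.
Snord47 of Gas5: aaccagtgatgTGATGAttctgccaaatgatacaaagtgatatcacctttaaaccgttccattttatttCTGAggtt
Snord50a of Snhg5: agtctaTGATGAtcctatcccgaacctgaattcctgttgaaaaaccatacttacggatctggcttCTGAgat
Snord99 of Snhg12: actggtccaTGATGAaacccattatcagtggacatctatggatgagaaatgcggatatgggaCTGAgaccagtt

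Dleu2 holds Mir16-1 and Mir15a. Their 5p arms, from RefSeq on GRCm38.p6 at chr14:61631936-61631957 and chr14:61632075-61632096 on the minus strand, share the same seed, shown in capitals (bases 2 to 8), so they belong to 1 seed family.
miR-16-5p: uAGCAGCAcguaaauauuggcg
miR-15a-5p: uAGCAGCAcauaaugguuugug

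The promoters were searched for a TATA-type motif, the letters TATAAA or TATATA on either strand, between 45 and 16 bases before the RefSeq start. Promoter entries matched 8 of the 10 genes, with 2 starts for Gas5. Of the 7 starts of the 6 hosts with an entry, 5 held the motif in this window, beside 1149 of all 32851 promoters in the table (3.5%). The windows from 45 bases before the start to 20 bases of transcript are printed 5′ to 3′ in the direction of transcription, with the match in capitals (TTTATA is TATAAA on the other strand). They lie at chr1:161035121-161035185, chr19:8723442-8723506, chr9:88522878-88522942, chr3:123508317-123508381 and chr4:132308633-132308697.
Gas5, second start: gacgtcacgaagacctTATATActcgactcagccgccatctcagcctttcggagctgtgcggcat
Snhg1: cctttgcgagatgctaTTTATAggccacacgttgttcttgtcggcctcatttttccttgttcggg
Snhg5: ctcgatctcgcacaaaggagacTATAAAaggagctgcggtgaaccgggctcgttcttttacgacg
Snhg8: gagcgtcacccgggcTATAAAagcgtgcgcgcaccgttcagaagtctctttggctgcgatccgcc
Snhg12: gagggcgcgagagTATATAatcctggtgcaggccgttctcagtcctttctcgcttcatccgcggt
The match began 29 bases before the start in Gas5 and Snhg1, 23 bases before it in Snhg5, 30 in Snhg8 and 32 in Snhg12. The windows of Malat1, Snhg3, Dleu2 and the first Gas5 start did not hold these letters, and in Snhg3 and Dleu2 a match lay after the annotated start, at bases 23 and 16. A match is a string of letters and not a measured binding site, and its relation to the values below was not tested.

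The deposited values, called normalized counts here, are read numbers that were scaled by a size factor for each library, and 19164795 to 23770537 reads per library lie behind them. Tamoxifen 1 stood apart from the other 5 libraries. Its mitochondrial reads were 0.00923% of all reads, against 1.01 to 1.56%, and across the 12298 genes that passed the filter on low values it was the lowest library for 41.6% and the highest for 41.1%. Usp18, the targeted gene, went against the labels, with 217, 214 and 176 normalized counts in oil and 477, 329 and 284 in the libraries labelled tamoxifen. Of markers of the sorted cells, Kit (4687 to 10976 normalized counts) and Cd34 (200.7 to 1052) were present in all 6 libraries, while Ptprc, which encodes the leukocyte antigen CD45, was at 0.90 to 8.1 and Mpo, of myeloid progenitors, at 0 to 20.2. The erythroid gene Hba-a1 was at 19942 to 57514, and the T cell, B cell and neutrophil markers Cd3e, Ms4a1 and Ly6g were at 0, with at most 1.0 for Cd3g, 8.2 for Cd79a and 6.4 for Camp. Of the macrophage markers, Adgre1 was at 0.93 to 11.1, and C1qa was at 16.2, 11.6 and 13.9 in oil and 60.1, 44.5 and 18.2 in tamoxifen, where the groups did not overlap. The part of such cells in the values below was not tested. In such bulk samples, fewer cells of a type and less RNA per cell cannot be told apart.

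Malat1 was the most variable of the 10 genes within the oil group. Its normalized counts were 2799, 5206 and 3361 in oil and 2505, 3166 and 6763 in tamoxifen. The highest library was tamoxifen 3 and the lowest tamoxifen 1, and the other 4 interleaved. The means were 3789 ± 1259 (SD, n = 3) in oil and 4145 ± 2292 (SD, n = 3) in tamoxifen, and the coefficient of variation in oil, 33.2%, compares with a median of 8.08% over all genes tested. The log2 fold change, tamoxifen over oil, was 0.044 (SE 0.41, 95% interval -0.94 to 1.03, limma adjusted p = 0.960). Without tamoxifen 1 it was 0.34 (95% interval -0.36 to 1.03).

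Neat1 had 628, 644 and 502 normalized counts in oil and 254, 513 and 972 in tamoxifen. The tamoxifen libraries spanned the oil libraries, with 1 below, 1 among and 1 above them. Oil averaged 591 ± 77.4 (SD, n = 3) and tamoxifen 579.9 ± 364 (SD, n = 3), for a log2 fold change of -0.23 (SE 0.46, limma adjusted p = 0.810), against 0.27 (95% interval -0.25 to 0.78) without tamoxifen 1. Per kb of exon, the Neat1 level was 7.54, 4.16 and 5.02% of that of Malat1 in oil and 3.41, 5.45 and 4.83% in tamoxifen. The ratio of the 2 neighbouring nuclear RNAs therefore overlapped between the groups, and tamoxifen 1 was the lowest of the 6 in this ratio as well.

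**Figure D1:**
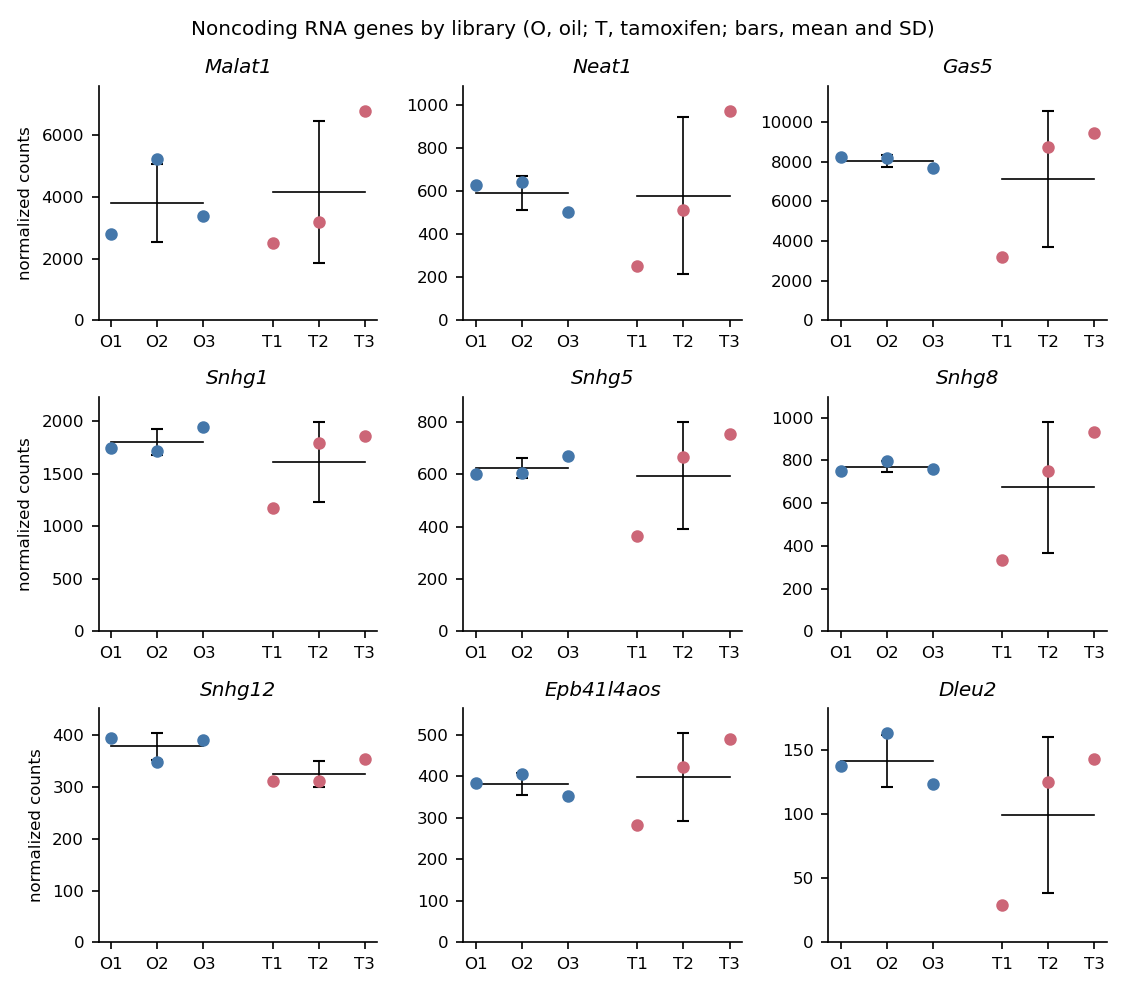
Normalized counts (y axis, linear, from 0) of the 9 noncoding RNA genes with reads in each library (O1 to O3, oil; T1 to T3, tamoxifen), with the mean and SD of each group in black. T1 is the lowest point in 8 of the 9 panels, all but that of Snhg12, and T2 and T3 lie within or above the oil points in all panels but that of Snhg12, where T2 lies below them.

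Gas5 was the most abundant of the hosts. It had 8255, 8159 and 7691 normalized counts in oil and 3179, 8751 and 9424 in tamoxifen. The 3 oil libraries were close together, with a coefficient of variation of 3.75%, tamoxifen 1 was far below them and the other tamoxifen libraries were above all of them. Oil averaged 8035 ± 302 (SD, n = 3) and tamoxifen 7118 ± 3428 (SD, n = 3), for a log2 fold change of -0.33 (SE 0.41, limma adjusted p = 0.704). Without tamoxifen 1 the sign turned, to 0.18 (SE 0.077, 95% interval 0.0038 to 0.35, limma adjusted p = 0.404), which did not pass the adjusted threshold.

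Snhg1, whose introns yield the snoRNAs of an 8-member cluster, had 1743, 1722 and 1943 normalized counts in oil and 1171, 1795 and 1865 in tamoxifen. Here 2 tamoxifen libraries lay inside the oil range and tamoxifen 1 below it. The log2 fold change was -0.19 (SE 0.21, limma adjusted p = 0.683) and 0.023 (95% interval -0.17 to 0.21) without tamoxifen 1, the smallest of the 9 in that fit.

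Snhg5 had 600.0, 606 and 669 normalized counts in oil and 363, 665 and 754 in tamoxifen. Snhg8, the host of Snora24, had 750.03, 799 and 761 in oil and 336, 752 and 933 in tamoxifen. In both genes tamoxifen 1 was lowest, tamoxifen 2 lay inside the oil range and tamoxifen 3 was highest. Their log2 fold changes were -0.14 (SE 0.29, limma adjusted p = 0.813) and -0.32 (SE 0.37, adjusted p = 0.691), and without tamoxifen 1 they were 0.18 (95% interval -0.053 to 0.42) and 0.12 (95% interval -0.13 to 0.37).

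Snhg12 differed in its order from the other hosts. It had 395, 349 and 392 normalized counts in oil and 312, 311 and 355 in tamoxifen, so that tamoxifen 1 and tamoxifen 2 were alike and both below oil, and only tamoxifen 3 reached into the oil range. Oil averaged 379 ± 25.6 (SD, n = 3) and tamoxifen 326 ± 24.9 (SD, n = 3), and the log2 fold change of -0.22 (SE 0.17, limma adjusted p = 0.666) was little moved by leaving out tamoxifen 1 (-0.19, 95% interval -0.46 to 0.090). Neither difference was beyond the spread between libraries by this test.

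Epb41l4aos lies at chr18:33794892-33795986 on the plus strand, next to Epb41l4a on the other strand. It had 385, 406 and 354 normalized counts in oil and 284, 423 and 490.2 in tamoxifen. As with Gas5, tamoxifen 1 lay below and the other 2 tamoxifen libraries above all oil libraries. The log2 fold change was 0.030 (SE 0.24, limma adjusted p = 0.953), and 0.26 without tamoxifen 1 (95% interval -0.015 to 0.53, limma adjusted p = 0.435).

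Dleu2 was the least abundant, with 137, 163 and 123 normalized counts in oil and 29.4, 125 and 143 in tamoxifen. The tamoxifen 1 value rests on 23 reads and was 21.4% of the median of the other 5 libraries, while tamoxifen 2 and 3 lay inside the oil range. Oil averaged 141 ± 20.1 (SD, n = 3) and tamoxifen 99.1 ± 61.0 (SD, n = 3). Their log2 fold change was -0.79 (SE 0.60, 95% interval -2.22 to 0.65, limma adjusted p = 0.666), the most negative of the 9, and -0.070 (95% interval -0.47 to 0.33) without tamoxifen 1.

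Snhg3 was listed at 0 in all 6 libraries. Snhg3 is the host of Snora73a and Snora73b and overlaps the 5′ end of Rcc1 on the same strand. Rcc1 itself, a chromatin-bound exchange factor for the GTPase Ran, had 2061, 2048 and 2478 normalized counts in oil and 3409, 2150 and 2075 in tamoxifen. Of the 986 exonic bases of Snhg3, 29.8% also belong to exons of genes on the same strand and 71.5% to exons on the opposite strand, which leaves 13.7% (135 bases) that no other gene shares. Among the other 9 genes the unshared part ranged from 79.1% in Snhg1 to 100% in Epb41l4aos. How reads on shared bases were counted, and whether by strand, is not given in the sources used here, so the part of the overlap in the zero was not tested and the zero was not read as absence of the RNA.

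**Figure D2:**
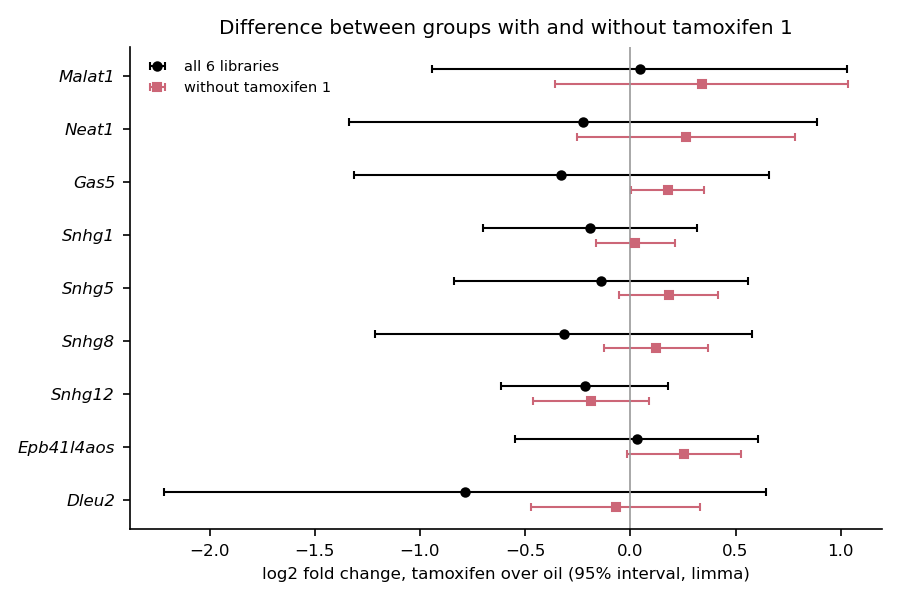
Log2 fold change, tamoxifen over oil (x axis), of each of the 9 tested genes (y axis) with its 95% interval from limma, for all 6 libraries (black circles) and without tamoxifen 1 (red squares). All 9 black intervals cross 0, and the point estimates move from 7 of 9 below 0 to 7 of 9 above 0.

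Across the 9 genes that passed the filter (normalized counts of 10 or above in 3 libraries or more), 7 had a lower and 2 a higher mean log2 value in tamoxifen. None passed an adjusted p of 0.05 in limma, as was the case for 0% of all 12298 genes tested, none had an unadjusted p under 0.05 (4.47% of all genes, 3.23% as higher and 1.24% as lower), and none had groups that did not overlap (17.6% of all genes, 7.86% with tamoxifen higher and 9.69% with it lower). The smallest adjusted p among them was 0.666. Their median log2 fold change was -0.22, beside -0.017 over all genes tested. Without tamoxifen 1, 7 were higher and 2 lower, with a median of 0.18 beside -0.021 over all genes. In that comparison none passed the adjusted threshold (0.333% of all genes did) and 1, Gas5, had an unadjusted p under 0.05 (12.1% of all genes, and 6.04% in the direction of a rise). Gas5 and Epb41l4aos were the 2 genes with both remaining tamoxifen libraries above all oil libraries, which held for 12.6% of all genes, and no member had both below (16.8%, and 29.4% in either direction).

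The members were read next against tamoxifen 1 itself. This library was the lowest of the 6 for 8 of the 9 genes, beside 41.6% of all genes tested, and was under 50% of the median of the other 5 for Neat1, Gas5, Snhg8 and Dleu2, beside 22.2% of all genes. As a share of that median, the tamoxifen 1 values were 74.5% for Malat1, 40.5% for Neat1, 38.5% for Gas5, 65.2% for Snhg1, 54.6% for Snhg5, 44.1% for Snhg8, 87.9% for Snhg12 and 69.9% for Epb41l4aos. The members therefore did not fall by a common factor. Tamoxifen 3 was the highest library for 6 of the 9, beside 12.2% of all genes. Summed over the hosts, the normalized counts were 12129, 12041 and 11810 in oil and 5644, 12697 and 13821 in tamoxifen. Gas5 made up 65.1 to 68.1% of that sum in oil, 68.9 and 68.2% in tamoxifen 2 and 3 and 56.3% in tamoxifen 1. All 10 genes together held 0.0722 to 0.0837% of the reads in oil, 0.0344% in tamoxifen 1, and 0.0761 and 0.103% in the other 2.

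Low values in tamoxifen 1 also went with base composition. Over all genes tested, 88.1% of those with a GC content under 42% had their lowest value in tamoxifen 1, against 66.2% from 42 to 48%, 28.4% from 48 to 54% and 8.28% at or above 54%. The members ranged from 34.5% GC in Dleu2 to 55.3% in Epb41l4aos, with a median of 45.1%. After each library was smoothed for GC content, the median difference between tamoxifen 1 and the other 5 over the 9 members went from -0.87 to -0.19 on the log2 scale, and 5 of the 9 were below 0. The genes parted in this step. Snhg1 went from -0.62 to 0.85, Malat1 from -0.42 to 0.63 and Dleu2 from -2.19 to 0.48, whereas Neat1 was still at -0.96 and Snhg8 at -0.62 after it, and Epb41l4aos, the most GC-rich, went from -0.52 to -1.05. Other long noncoding genes had low values there as well, since of 702 tested, 61.0% were lowest in tamoxifen 1, beside 39.9% of protein-coding genes. The part of base composition in the low values was not tested beyond this correction.

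**Figure D3:**
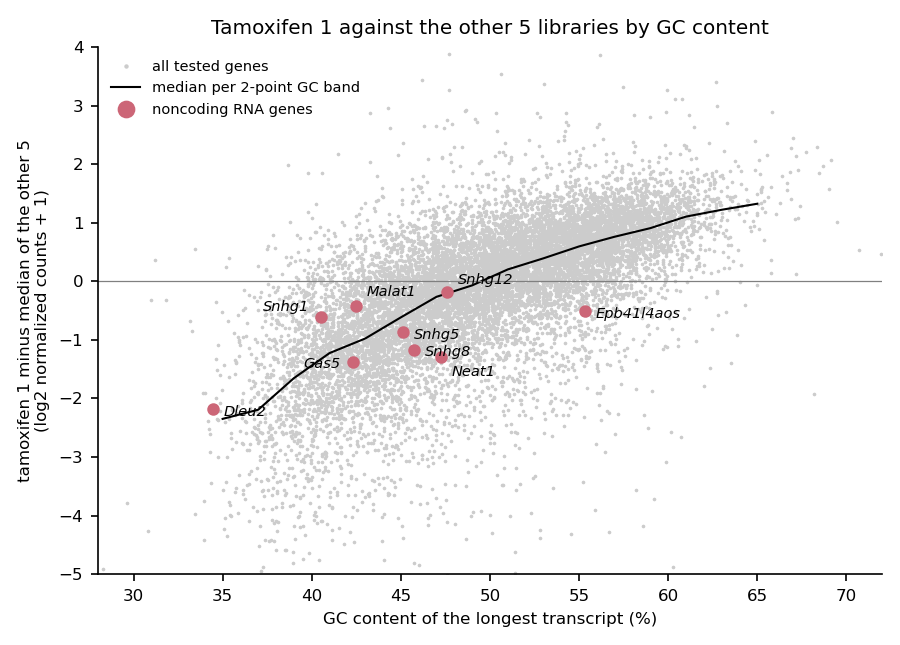
Difference between tamoxifen 1 and the median of the other 5 libraries (y axis, log2 of normalized count plus 1) against the GC content of the longest transcript (x axis, %), for all tested genes with a known GC content (grey; points beyond the axes are not drawn), their median per band (black line) and the 9 noncoding RNA genes (red). The median rises with GC content. All 9 red points lie below 0, from -2.19 (Dleu2) to -0.19 (Snhg12), with Neat1, Snhg8 and Epb41l4aos below the line and Malat1 and Snhg1 above it.

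Levels were compared between genes as RPKM computed from the recovered reads, that is, reads per kb of exon scaled to the same library total. In oil, Gas5 was at 99.0 ± 4.89 (SD, n = 3), Snhg8 at 41.8 ± 1.42 and Epb41l4aos at 41.1 ± 3.19, and the last 2 could not be separated by their ranges. Snhg1 (28.1 ± 1.59) and Malat1 (25.1 ± 8.35) also overlapped. Below them came Snhg5 (16.7 ± 0.818), Snhg12 (7.30 ± 0.50), Neat1 (1.32 ± 0.186) and Dleu2 (0.578 ± 0.0850), each apart from its neighbours in all oil libraries. In tamoxifen 1 the order was nearly that of oil, with Gas5 first at 34.5, then Epb41l4aos (26.9), Snhg1 (16.1) and Snhg8 (16.1). By normalized count, Gas5 ranked 396th, 420th and 455th of all genes in the oil libraries, and 1731st in tamoxifen 1. The length is that of all annotated exons together, which understates a gene such as Neat1 or Dleu2 whose longest form may be little used. For Snhg1 (2969 bases), Snhg8 (853) and Snhg12 (2402) these exons together cover the whole gene, introns of the spliced RNA included. For Gas5 (3760) they cover most of it. The levels of these hosts may thus be understated as well, unlike that of Epb41l4aos with its 430 exonic bases. The order between genes depends on this choice of length.

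**Figure D4:**
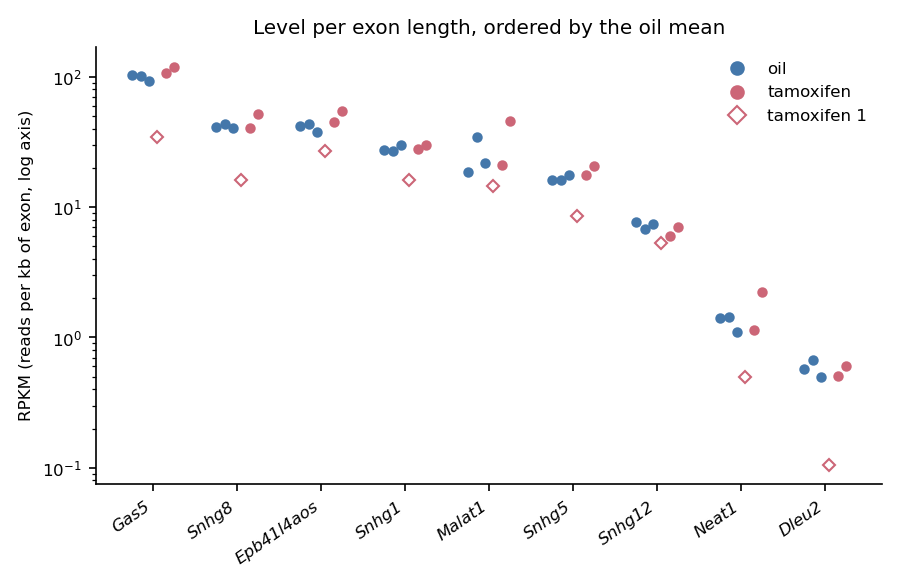
RPKM (reads per kb of exon scaled to the same library total, y axis, log scale) of the 9 genes, ordered by the oil mean, for each oil library (blue), tamoxifen 2 and 3 (filled red) and tamoxifen 1 (open diamonds). Gas5 is highest in all 6 libraries and Dleu2 lowest, at 99.0 and 0.578 on average in oil, and Malat1 has the widest spread among the oil points.

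The small RNAs themselves were hardly counted. The rows of the 27 snoRNA loci held 4 reads in all 6 libraries together, all 4 in the snoRNA of Epb41l4aos, and the rows of Mir15a and Mir16-1 held 0. A count of 0 in a library allows up to 3 reads, by counting error alone. Of the 29 snoRNA entries in the annotation, 26 lie wholly in annotated exons of the host and 1 in part, so a read there would fall on 2 genes. The values above are therefore those of the host transcripts and say nothing of the levels of mature snoRNAs or microRNAs.

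Further noncoding snoRNA hosts were taken from a list of 13, of which 11 were in the table and 6 passed the filter. Of these 6, 3 were higher and 3 lower in tamoxifen, with a median log2 fold change of 0.018 (0.22 without tamoxifen 1) and none past the adjusted threshold. Snhg15, a short-lived host RNA, had 413, 366 and 398 normalized counts in oil and 849.9, 506 and 528 in tamoxifen. All 3 tamoxifen libraries were above all oil libraries, the log2 fold change was 0.64 (SE 0.24, limma adjusted p = 0.666), and it was 0.40 without tamoxifen 1. Zfas1, with 1681, 1769 and 1631 in oil and 2850, 1803 and 2004 in tamoxifen, likewise showed no overlap (log2 fold change 0.36, adjusted p = 0.666, and 0.17 without tamoxifen 1). Snhg6 went the other way, at 869, 846 and 919 in oil and 224, 959 and 905 in tamoxifen, so that its log2 fold change of -0.60 became 0.086 without tamoxifen 1. Noncoding hosts thus stood on both sides in tamoxifen 1.

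**Figure D5:**
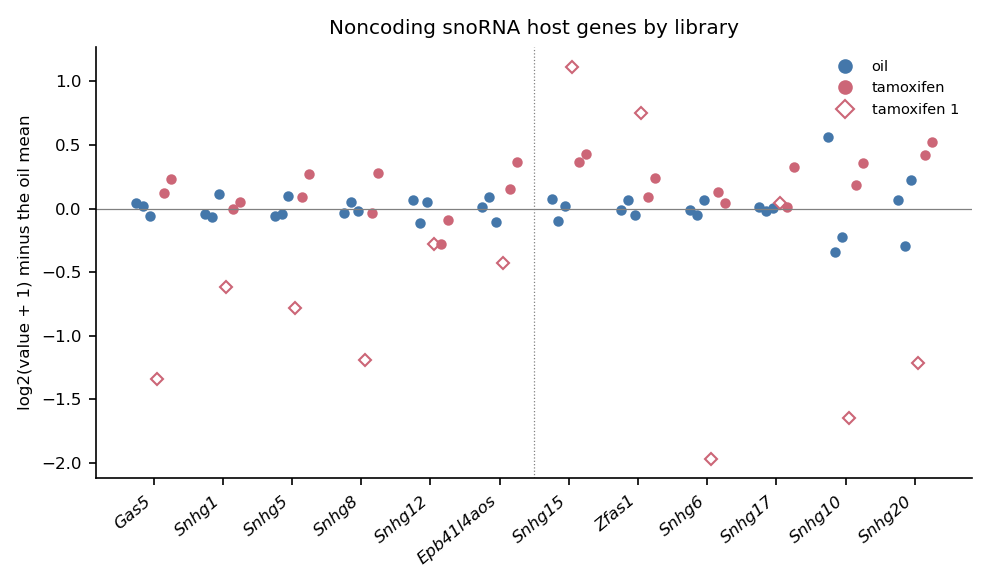
Log2 of normalized count plus 1, minus the mean of the oil libraries (y axis), for the 6 hosts described above (left of the dotted line) and 6 further noncoding snoRNA hosts (right), with oil in blue, tamoxifen 2 and 3 in filled red and tamoxifen 1 as open diamonds. Tamoxifen 1 lies under the oil mean for the 6 on the left and for Snhg6, Snhg10 and Snhg20, above it for Snhg15 and Zfas1, and close to it for Snhg17.

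Other long noncoding RNA genes on a list of 25 were tested in 14 cases, with 4 higher, 10 lower, a median log2 fold change of -0.29 (0.031 without tamoxifen 1) and none past the adjusted threshold. Pvt1, the transcript next to Myc, had 1885, 1725 and 1635 normalized counts in oil and 836, 1380 and 1339 in tamoxifen. The groups did not overlap, with or without tamoxifen 1, and the log2 fold changes were -0.59 (SE 0.23, limma adjusted p = 0.666) and -0.36. Mir142hg, the host of a microRNA of blood cells, had 33.2, 47.3 and 27.9 in oil and 76.7, 57.6 and 91.8 in tamoxifen (log2 fold change 1.05, adjusted p = 0.666, and 1.02 without tamoxifen 1). Rn7sk, a regulator of the elongation factor P-TEFb, was at 199, 286 and 236 in oil and 109, 156 and 217 in tamoxifen (-0.62, adjusted p = 0.666, and -0.37 without tamoxifen 1), where the groups overlapped.

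The proteins that work with these RNAs were read from 5 lists, and no gene on them passed the adjusted threshold in limma. Of 13 paraspeckle proteins, the partners of Neat1, 2 were higher and 11 lower (median log2 fold change -0.32, and -0.095 without tamoxifen 1). Nudt21, a subunit of the cleavage factor that chooses polyadenylation sites, was at 3500, 3156 and 3533 normalized counts in oil and 832, 3136 and 2993 in tamoxifen. Its low value in tamoxifen 1 resembled that of Neat1, and the other 2 tamoxifen libraries were also under all oil libraries. The paraspeckle proteins Rbm14 and Hnrnpk had log2 fold changes of -0.32 and -0.45. Without tamoxifen 1 the values of Nudt21, Rbm14 and Hnrnpk were -0.15, -0.20 and -0.11, against -0.77 for Nudt21 with all libraries.

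Of 11 nuclear speckle proteins, 3 were higher and 8 lower (median -0.12, and -0.023 without tamoxifen 1). Srrm2, a core protein of speckles, had 7965, 10690 and 9333 normalized counts in oil and 18412, 10021 and 10472 in tamoxifen, opposite in tamoxifen 1 to the splicing regulators Tra2b (log2 fold change -0.48) and Srsf7 (-0.36). After GC correction this contrast was gone. The log2 differences of tamoxifen 1 from the median of the other 5 were then 0.67 for Srrm2, 0.54 for Tra2b and 0.43 for Srsf7. Without tamoxifen 1, Tra2b was at -0.15, Srsf7 at -0.11 and Srrm2 at 0.15, the last against 0.43 with all libraries. Of 13 snoRNA particle proteins, 8 were higher and 5 lower (median 0.052, and 0.030 without tamoxifen 1). Fbl, the methyltransferase of box C/D particles, had 5344, 4998 and 5773 in oil and 7870, 5856 and 5672 in tamoxifen, and Nolc1 and Naf1, which act in particle assembly, had log2 fold changes of 0.68 and 0.29, or 0.26 and 0.10 without tamoxifen 1. Tamoxifen 1 was the highest library for these 3 genes, as it was for 41.1% of all genes tested, and the lowest for 5 of the 13. Among those 5, Nop10, a subunit of box H/ACA particles, had 1863, 1893 and 2128 in oil and 107, 2077 and 1935 in tamoxifen (log2 fold change -1.37, and 0.034 without tamoxifen 1), and was chosen here after its values were seen.

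Nonsense-mediated decay factors were higher in 12 of 15 cases and lower in 3 (median 0.066, and 0.073 without tamoxifen 1). Upf1, the helicase of the pathway, had 5572, 5813 and 5736 normalized counts in oil and 15698, 6269 and 5814 in tamoxifen, for a log2 fold change of 0.54 (SE 0.38, limma adjusted p = 0.666) that was 0.081 without tamoxifen 1. Upf3a and Smg9 had log2 fold changes of 0.31 and 0.51, and both were at 0.13 without tamoxifen 1. Of 12 genes of the microRNA pathway, the machinery for the products of Dleu2, 5 were higher and 7 lower (median -0.11, and -0.0068 without tamoxifen 1). Prkra, a partner of Dicer, had a log2 fold change of -0.61, Tnrc6c, a scaffold of silencing, 0.44, and Ago1 -0.19. Without tamoxifen 1 these were -0.35, 0.24 and -0.057.

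Neighbouring protein-coding genes had tamoxifen 1 values on either side of their other libraries. Frmd8, 4224 bp from Neat1, had 1618, 1652 and 1575 normalized counts in oil and 3711, 1565 and 1471 in tamoxifen, the opposite of Neat1 in tamoxifen 1. Slc3a2, the heavy chain of amino acid transporters, starts 106 bp from Snhg1 on the other strand and had 8253, 7592 and 8220 in oil and 12796, 8219 and 10062 in tamoxifen, again high in tamoxifen 1. Zbtb37 overlaps Gas5 on the other strand and was at 507, 647 and 552 in oil and 193, 562 and 614 in tamoxifen, low in tamoxifen 1 as Gas5 was. No exonic base of Gas5 lies on an exon of the opposite strand. Epb41l4a, 341 bp from Epb41l4aos, had 1.0 to 5.1 normalized counts in the 6 libraries, far below the noncoding gene at 284 to 490.2. Trim13, which overlaps Dleu2 on the other strand, had 60.2, 51.1 and 50.1 in oil and 20.4, 41.4 and 60.9 in tamoxifen. The GC content was 56.2% for Frmd8 and 53.4% for Slc3a2, both high in tamoxifen 1. It was 41.4% for Zbtb37 and 42.2% for Trim13, both low there. Of all tested genes at or above 54% GC, 77.5% were highest in tamoxifen 1. A link between neighbours and members was not tested.

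The genes most like 3 of the members were found by the root mean square difference of log2 values, centred for each gene, over the 6 libraries. For Malat1 these were Slc16a4 (0.156), Pcolce (0.167) and 4933433G19Rik (0.214), the first 2 with 10.2 to 34.6 normalized counts. For Neat1 they were Slc39a7 (0.124), Paqr3 (0.124) and Runx2 (0.148), where Runx2 had 300.01, 283 and 248 in oil and 143, 251 and 394 in tamoxifen. For Gas5 they were Smim8 (0.0187), Xrn1 (0.0321) and Med20 (0.0365). Xrn1 had 2626, 2620 and 2476 in oil and 974, 2660 and 2942 in tamoxifen, so that many of the steps of Gas5 from library to library recurred in it. These 9 are the closest of 12298 genes over 6 libraries, of which 1 stood apart.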

How the data were processed

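RNA of sorted cells was sequenced as paired reads, with libraries made, per the labels, with a DNA tagmentation kit. The submitters' processing notes name STAR, DESeq2 and mm10, whereas the annotation, strand setting and RNA selection are not given in the sources used here. The table deposited by the authors holds a normalized signal, reads divided by 1 size factor per library. All values were whole multiples of 1 read (tolerance 0.1 read), which gave the reads back. Rows without a name (1832 of 55450) were left out, 0.0400 to 0.0614% of reads, and 1402 names split by the table's format were rejoined. Groups were compared with limma 3.58.1 in R 4.3.3 on log2(value + 1), for the 12298 genes that reached 10 in 3 libraries or more, with Benjamini-Hochberg adjustment, two-sided, and 95% intervals. Fold changes are on this scale. The scripts were tested on simulated data. Members and lists were chosen with earlier results of these data known. Named were all 10 members, up to 3 genes of each list with the smallest p, and some of the nearest protein-coding genes. Also named were 3 genes most like each of Malat1, Neat1 and Gas5, the cell markers, Usp18, and Nop10, which was chosen after its values were seen. Alternatives included edgeR 4.0.16 and DESeq2 1.42.0 on the recovered reads. 1 marker gene is not reported here.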

Additional observations from a re-analysis of the deposited data

How the results depend on the processing

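Under each alternative tried, none of the 9 genes tested passed an adjusted p of 0.05. Leaving out each library in turn gave 0 to 2 genes whose groups did not overlap (0 with all libraries) and 0 to 1 with an unadjusted p under 0.05. Those that gave any were oil 2 (1 gene without overlap, beside 23.9% of all genes tested), tamoxifen 1 (2 without overlap, beside 29.4%, and 1 by p, beside 12.1%) and tamoxifen 3 (1 without overlap, beside 26.6%). With estimated library weights, 3 genes had an unadjusted p under 0.05, beside 23.4% of all genes, and none an adjusted p under 0.05, beside 6.36%. Log2 fold changes whose sign turned ranged, over the libraries left out, from -0.38 to 0.34 (Malat1), -0.14 to 0.26 (Epb41l4aos), -0.70 to 0.27 (Neat1), -0.61 to 0.18 (Gas5), -0.31 to 0.023 (Snhg1), -0.34 to 0.18 (Snhg5) and -0.61 to 0.12 (Snhg8). After GC correction, with or without the replicate block, they were 0.031 (Gas5), 0.28 (Snhg1), 0.082 (Snhg5), -0.17 (Epb41l4aos) and 0.11 (Dleu2). With library weights they were 0.48 (Neat1), 0.19 (Gas5), 0.048 (Snhg1), 0.23 (Snhg5) and 0.19 (Snhg8). Without a change of sign, Malat1 (0.044 with all libraries) was at 0.39 after GC correction, 0.53 with library weights, 0.15 with edgeR, 0.13 with DESeq2, 0.019 with TMM and 0.11 with upper-quartile scaling, and Dleu2 (-0.79) was at -0.083 with library weights, -0.48 with edgeR and -0.51 with DESeq2. The other genes also moved in some fits without a change of sign, among them, with edgeR, Neat1 (-0.0014), Gas5 (-0.15), Snhg5 (-0.052), Snhg8 (-0.17) and Epb41l4aos (0.084), and, after GC correction, Snhg12 (-0.13). The causes were not tested beyond these fits. Same-numbered oil and tamoxifen libraries had correlations of deviations of -0.024, 0.061 and -0.15, which gave no sign that the numbers pair the mice. With 3 libraries a group and tamoxifen 1 so far apart, these correlations cannot exclude a pairing. The replicate block left 0 genes past the threshold. With 3 libraries a group, differences anywhere within the intervals above remain possible. The smallest difference that could have been detected was not computed.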
